A study of Mus musculus with 24 samples.

Results

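The genes described are 10 genes that mark Kupffer cells, the resident macrophages of the liver, and lipid-associated macrophages, a macrophage state of injured or fat-laden tissue. They were taken by name from a table of 37583 genes, all 10 were found, and all 10 were among the 16471 genes with enough signal to test. The 4 groups of mouse liver were DEN-treated Smyd3 knockout (DEN_KO), DEN-treated wild type (DEN_WT), untreated Smyd3 knockout (KO) and untreated wild type (WT), with 3 libraries each, from mice labelled C57BL6/CBA and killed at 8.5 months of age. DEN is diethylnitrosamine, a liver carcinogen given once at 25 mg/kg into the peritoneum, and Smyd3 is a lysine methyltransferase. A trap cassette in intron 5 disrupts Smyd3 in the whole body, so macrophages carry it as hepatocytes do. Deposited chromatin region lists, 1 per group, cover Smyd3 and the start-site mark H3K4me3 in DEN-treated livers.

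Kupffer cells line the liver sinusoids and clear bacteria, complement-coated particles and dying cells from portal blood. Their survival depends on signals through the CSF1 receptor, and in the mouse they carry Clec4f, Vsig4, Cd5l and Marco. In fatty, fibrotic or tumour-bearing liver, monocytes enter and can take up a state with Trem2, Gpnmb, Cd9 and Spp1, in which lysosomal and lipid-handling genes are high. Whole liver was sequenced, so fewer cells of a type and less RNA per cell cannot be told apart for any of these genes.

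The 12 libraries had summed values of 22320634 to 28973396, and libraries of a group correlated at r = 0.956 to 0.978. Smyd3 read 3 to 12 in DEN_KO, 57 to 74 in DEN_WT, 17 to 29 in KO and 59 to 89 in WT, so the labels and the targeted gene went the same way. DEN_WT replicate 2 stood apart. Its 10 highest genes held 33.4% of all values, against 22.4% and 26.9% in the other DEN_WT libraries, and it was the lowest DEN_WT library for all 10 genes. Values without it are given beside several of the results.

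The start-site sequences shown were picked, for their RNA or chromatin results, from the 8 genes matched to a RefSeq promoter. They are those of 3 genes of the lipid-associated state and 2 genes of resident Kupffer cells. Each runs 5′ to 3′ on the strand of the gene, from 250 bases before to 50 bases after the RefSeq start in build GRCm38.p6. Capitals mark 3 letter strings on either strand. They are GAGGAA (core of sites bound by the macrophage factor PU.1), TGACTCA (the AP-1 site) and CCCTCC (a sequence that the SMYD3 protein has been described to bind).
Gpnmb, chr6:49036268-49036567, plus strand: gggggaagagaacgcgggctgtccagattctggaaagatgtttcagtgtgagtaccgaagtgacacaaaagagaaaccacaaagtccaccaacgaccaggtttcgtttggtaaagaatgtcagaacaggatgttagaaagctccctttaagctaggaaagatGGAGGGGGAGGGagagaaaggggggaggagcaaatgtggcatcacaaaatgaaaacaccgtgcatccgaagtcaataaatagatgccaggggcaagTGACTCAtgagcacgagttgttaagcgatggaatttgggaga
Trem2, chr17:48346151-48346450, plus strand: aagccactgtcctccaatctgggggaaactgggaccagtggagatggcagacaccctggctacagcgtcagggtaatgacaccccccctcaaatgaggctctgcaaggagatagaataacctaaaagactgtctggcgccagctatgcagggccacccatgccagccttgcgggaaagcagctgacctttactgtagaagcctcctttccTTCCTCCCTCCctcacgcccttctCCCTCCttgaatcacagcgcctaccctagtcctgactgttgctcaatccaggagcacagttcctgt
Lgals3, chr14:47373610-47373909, plus strand: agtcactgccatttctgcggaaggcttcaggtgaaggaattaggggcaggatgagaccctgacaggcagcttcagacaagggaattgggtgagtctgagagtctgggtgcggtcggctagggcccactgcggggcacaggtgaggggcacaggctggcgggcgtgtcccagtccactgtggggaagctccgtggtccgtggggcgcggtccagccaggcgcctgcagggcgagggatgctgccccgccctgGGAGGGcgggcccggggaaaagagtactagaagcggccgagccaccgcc
Clec4f, chr6:83656067-83656366, minus strand: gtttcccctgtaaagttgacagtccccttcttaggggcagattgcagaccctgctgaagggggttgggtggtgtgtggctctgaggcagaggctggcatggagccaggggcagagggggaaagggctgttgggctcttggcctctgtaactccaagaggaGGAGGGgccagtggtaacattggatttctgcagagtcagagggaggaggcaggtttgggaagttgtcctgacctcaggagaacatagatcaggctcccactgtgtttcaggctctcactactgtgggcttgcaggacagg
Cd5l, chr3:87357631-87357930, plus strand: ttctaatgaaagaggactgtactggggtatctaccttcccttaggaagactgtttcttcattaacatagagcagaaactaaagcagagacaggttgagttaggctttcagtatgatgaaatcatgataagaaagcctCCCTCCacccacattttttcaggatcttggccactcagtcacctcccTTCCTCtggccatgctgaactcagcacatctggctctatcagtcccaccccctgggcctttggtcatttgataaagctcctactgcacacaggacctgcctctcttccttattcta

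Clec4f and Cd5l hold 0 CpG dinucleotides in these 300 bases, as does Marco, whereas Gpnmb holds 9, Trem2 5 and Lgals3 18. The median over 32851 RefSeq promoters was 7. Gpnmb holds the AP-1 string once, Trem2 and Cd5l hold the PU.1 core once each, and in Trem2 that match shares letters with a CCCTCC match. CCCTCC or its complement is in the 5 sequences shown and in Marco but not in Cd68 or Vsig4, that is in 6 of the 8 matched genes, and in 39.2% of all promoters. GAGGAA is in 28.3% of promoters and TGACTCA in 5.2%. CACGTG (7.15% of promoters), CATGTG (14.2%), TATAAA (13.6%) and TGCTGAC (4.67%) were searched as well on both strands and matched none of these 5 sequences. The RefSeq starts may not all be the table starts at which chromatin regions were counted. The table gives spans longer than RefSeq by 12747 bases for Gpnmb, 6102 for Lgals3 and 1871 for Trem2, against 71 for Clec4f and 0 for Cd5l. A longer span does not by itself show that the start differs, as the other end may. A match is a description of the letters and not evidence of binding. Promoters were matched for 8 of the 10 genes, but not for Cd14 or Csf1r.

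In DEN_WT livers the genes of the lipid-associated state and Cd14 were higher than in WT, while the resident Kupffer cell genes showed no common rise. Limma called 4 of the 10 genes higher (Gpnmb, Trem2, Cd14 and Lgals3) and 0 lower, beside 16.1% of all tested genes higher and 29.6% in either direction. The same 4 genes had every DEN_WT library above every WT library, which holds for 22.4% of tested genes. The median log2 fold change of the 10 genes was 0.75, against -0.02 over all tested genes.

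Gpnmb encodes a membrane glycoprotein of lysosome-rich phagocytes. It read 637, 122 and 220 in the DEN_WT libraries, against 7, 4 and 4 in WT, so the groups did not overlap although DEN_WT spanned a wide range. The means were 326 ± 273 in DEN_WT and 5.00 ± 1.73 in WT (SD, n = 3 each, as for all means here). On the log2 scale the change was 5.47 ± 0.83 SE (limma adjusted p = 0.00037), and 4.82 without DEN_WT replicate 1, the highest library. Outside DEN_WT only 2 libraries reached a value of 10, so Gpnmb entered the test through the group in which it was high.

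Trem2 encodes a lipid-sensing receptor that signals through the adaptor Tyrobp. Its values were 123, 51 and 55 in DEN_WT, against 2, 7 and 11 in WT. Every DEN_WT library lay above every other library of the series. The log2 fold change was 3.43 ± 0.65 SE (limma adjusted p = 0.0015), and 3 libraries outside DEN_WT reached a value of 10.

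Cd14 encodes the lipopolysaccharide co-receptor of TLR4, found on macrophages and inducible in other liver cells. Cd14 read 1839, 1433 and 2494 in DEN_WT, against 56, 47 and 73 in WT. All DEN_WT libraries were far above the highest WT library, with less relative spread than Gpnmb. The log2 fold change was 5.00 ± 0.35 SE (limma adjusted p = 1.5e-06), and it ran from 4.79 to 5.19 when single libraries were left out.

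Lgals3 encodes galectin-3, a galactoside-binding lectin of macrophages that bile duct cells also make. Its values were 423, 125 and 250 in DEN_WT, against 42, 39 and 33 in WT, again without overlap. The log2 fold change was 2.61 ± 0.46 SE (limma adjusted p = 0.00091). Bile duct markers moved with it: the summed values of 8 cholangiocyte genes were 11813 to 21107 in DEN_WT and 1277 to 1566 in WT, 3 of 7 tested were higher and 0 lower, and none was at 0 in every library. Spp1, which macrophages make as well, gave 9331 to 16227 of the DEN_WT sums. The part of bile duct cells in the Lgals3 result was not tested.

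The 4 genes of resident Kupffer cells, Csf1r and Cd68 were not past the threshold in DEN_WT against WT. Clec4f, a lectin restricted to Kupffer cells in the mouse, read 2797, 802 and 2076 in DEN_WT and 1993, 2200 and 2309 in WT. DEN_WT replicate 2 was the lowest of all 12 libraries, and the groups overlapped (log2 fold change -0.37 ± 0.34 SE, limma adjusted p = 0.43). Without that library the value was 0.16.

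Cd5l, a secreted inhibitor of macrophage apoptosis, read 3660, 759 and 2299 in DEN_WT and 1346, 1274 and 1389 in WT. DEN_WT libraries therefore lay both above and below the WT range. The log2 fold change of 0.47 ± 0.40 SE had a limma adjusted p of 0.41. It became 1.12 (adjusted p = 0.0045) without DEN_WT replicate 2 and -0.02 without DEN_WT replicate 1, over a range of adjusted p from 0.0045 to 0.98.

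Vsig4, the complement receptor that captures C3b-coated particles, read 549, 160 and 298 in DEN_WT and 208, 455 and 326 in WT, a full overlap. Marco, a scavenger receptor for bacteria and particles, read 107, 14 and 32 in DEN_WT and 17, 28 and 18 in WT, also overlapping. Csf1r, the receptor for CSF1 and IL34, read 1102, 405 and 856 in DEN_WT and 569, 483 and 336 in WT, with 2 DEN_WT libraries above the WT range. Cd68, a late endosomal glycoprotein of macrophages, read 299, 129 and 260 in DEN_WT and 146, 159 and 128 in WT. Without DEN_WT replicate 2, Csf1r (log2 fold change 1.10, limma adjusted p = 0.0074) and Cd68 (0.95, adjusted p = 0.019) passed the threshold as well, which made 7 of 10 genes higher, beside 13.9% of tested genes higher and 23.6% called in all without that library.

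**Figure D1:**
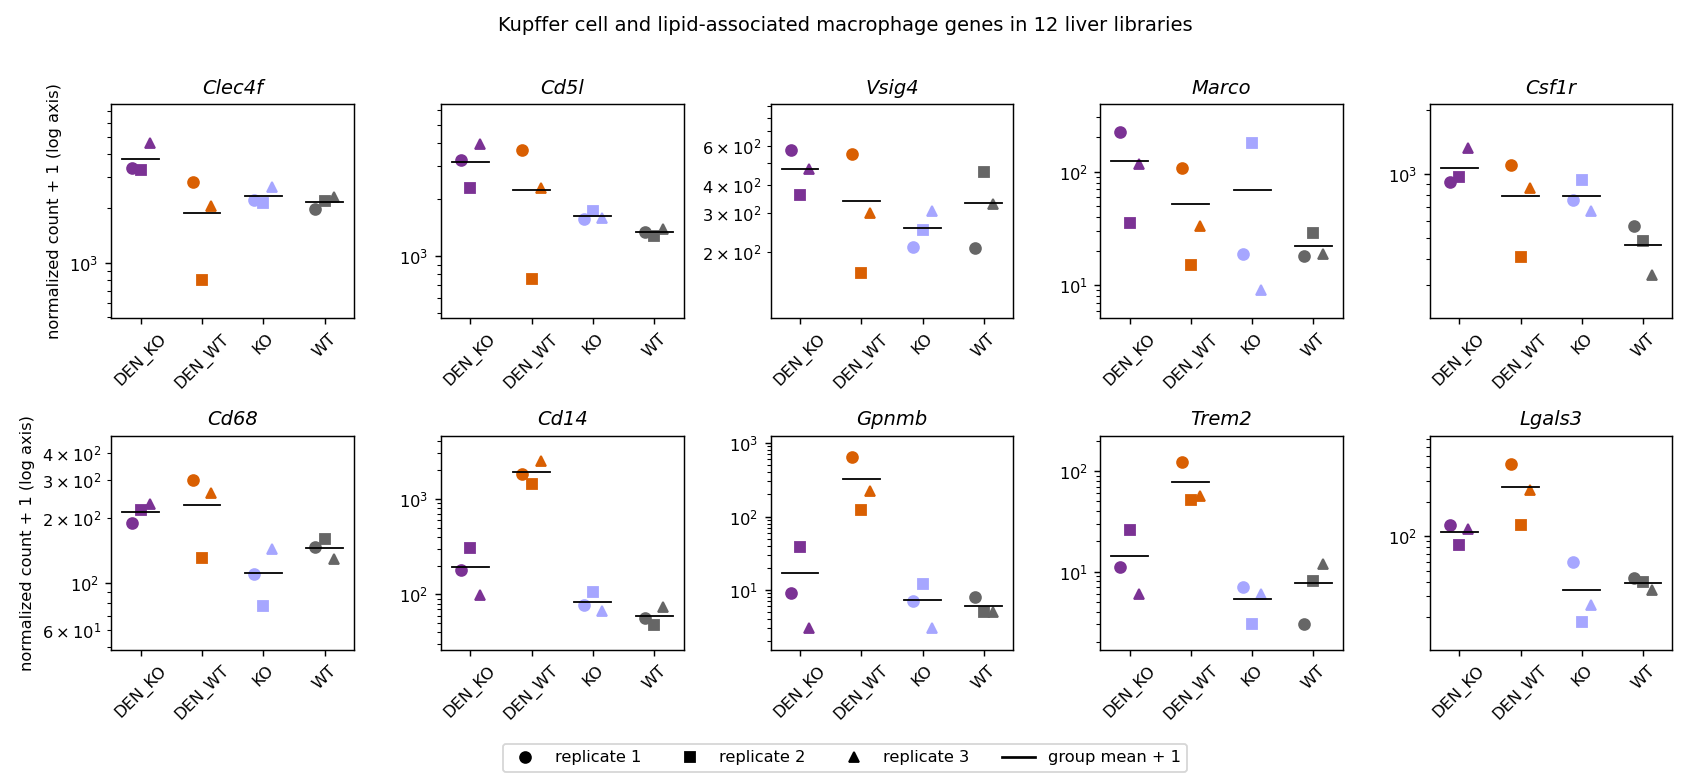
Normalized count plus 1 on a log axis for each of the 10 genes, by group, with a symbol per replicate and a bar at the group mean plus 1. Gpnmb, Trem2, Cd14 and Lgals3 have all 3 DEN_WT libraries above all other groups, while DEN_WT replicate 2 (square) is the lowest DEN_WT library for Clec4f (802) and Cd5l (759).

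With Smyd3 disrupted, DEN-treated livers had lower Gpnmb, Trem2 and Cd14 and higher Clec4f. In DEN_KO against DEN_WT limma called 3 of the 10 genes lower (Gpnmb, Trem2 and Cd14) and 1 higher (Clec4f), beside 17.4% of tested genes lower and 16.4% higher, or 33.9% in all. The members' count of 4 of 10 is close to that background. In this contrast the 10 genes had a median of 0.26, against -0.06 over all tested genes. The comparison shares its DEN_WT libraries with DEN_WT against WT, so the opposite signs of Gpnmb, Trem2 and Cd14 in the 2 comparisons are not independent of each other.

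Gpnmb read 8, 38 and 2 in DEN_KO, against 637, 122 and 220 in DEN_WT, and the groups did not overlap. The log2 fold change was -4.67 ± 0.83 SE (limma adjusted p = 0.0011). It was -4.02 without DEN_WT replicate 1, -3.79 without DEN_KO replicate 3 and -5.64 without DEN_KO replicate 2, each past the threshold. Gpnmb entered this test too through DEN_WT, the group in which it was high. Trem2 read 10, 25 and 5 in DEN_KO, against 123, 51 and 55 in DEN_WT (-2.57 ± 0.65 SE, limma adjusted p = 0.0083). DEN_KO replicate 2 was the highest DEN_KO library for Gpnmb, Trem2 and Cd14.

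Cd14 read 181, 302 and 98 in DEN_KO, against 1839, 1433 and 2494 in DEN_WT. The lowest DEN_WT library was well above the highest DEN_KO library, and the log2 fold change was -3.41 ± 0.35 SE (limma adjusted p = 5.1e-05). Lgals3 read 124, 83 and 114 in DEN_KO, against 423, 125 and 250 in DEN_WT. The groups stood apart by 1 unit, between DEN_KO replicate 1 and DEN_WT replicate 2, and Lgals3 did not pass (-1.16 ± 0.46 SE, limma adjusted p = 0.065). Without DEN_WT replicate 2 it did (-1.62, adjusted p = 0.019).

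Clec4f read 3344, 3266 and 4621 in DEN_KO, against 2797, 802 and 2076 in DEN_WT. Every DEN_KO library was above every library of the other groups. The log2 fold change was 1.15 ± 0.34 SE (limma adjusted p = 0.018), with a range of adjusted p from 0.0032 to 0.077 over the other settings. The call was lost without DEN_KO replicate 3 (0.98, adjusted p = 0.077) and in a fit of the DEN-treated groups alone (adjusted p = 0.063), and it held without DEN_WT replicate 2 at a smaller value, 0.62.

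The other 5 genes overlapped between DEN_KO and DEN_WT. Cd5l read 3254, 2309 and 3928 in DEN_KO, against 3660, 759 and 2299 in DEN_WT. Csf1r read 919, 966 and 1324 in DEN_KO, against 1102, 405 and 856 in DEN_WT. Their log2 fold changes were 0.74 ± 0.40 and 0.54 ± 0.32 SE (limma adjusted p = 0.18 and 0.2), positive but within the spread between libraries. Vsig4 read 573, 361 and 469 in DEN_KO, against 549, 160 and 298 in DEN_WT, Marco 220, 34 and 115 against 107, 14 and 32, and Cd68 189, 217 and 231 against 299, 129 and 260. Cd68, the general macrophage gene, had a log2 fold change of -0.03 ± 0.30 SE, so that its means of 212 ± 21.4 in DEN_KO and 229 ± 89.1 in DEN_WT could not be told apart at this spread. The values of these 5 genes depended on which DEN_WT library was left out. Without DEN_WT replicate 2 they were 0.09 for Cd5l, 0.18 for Vsig4 and 0.12 for Csf1r (limma adjusted p = 0.81, 0.73 and 0.76), and 0.69 for Marco and -0.40 for Cd68. Without DEN_WT replicate 1, Cd5l (1.23, adjusted p = 0.019) and Vsig4 (1.07, adjusted p = 0.032) passed as higher in DEN_KO.

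**Figure D2:**
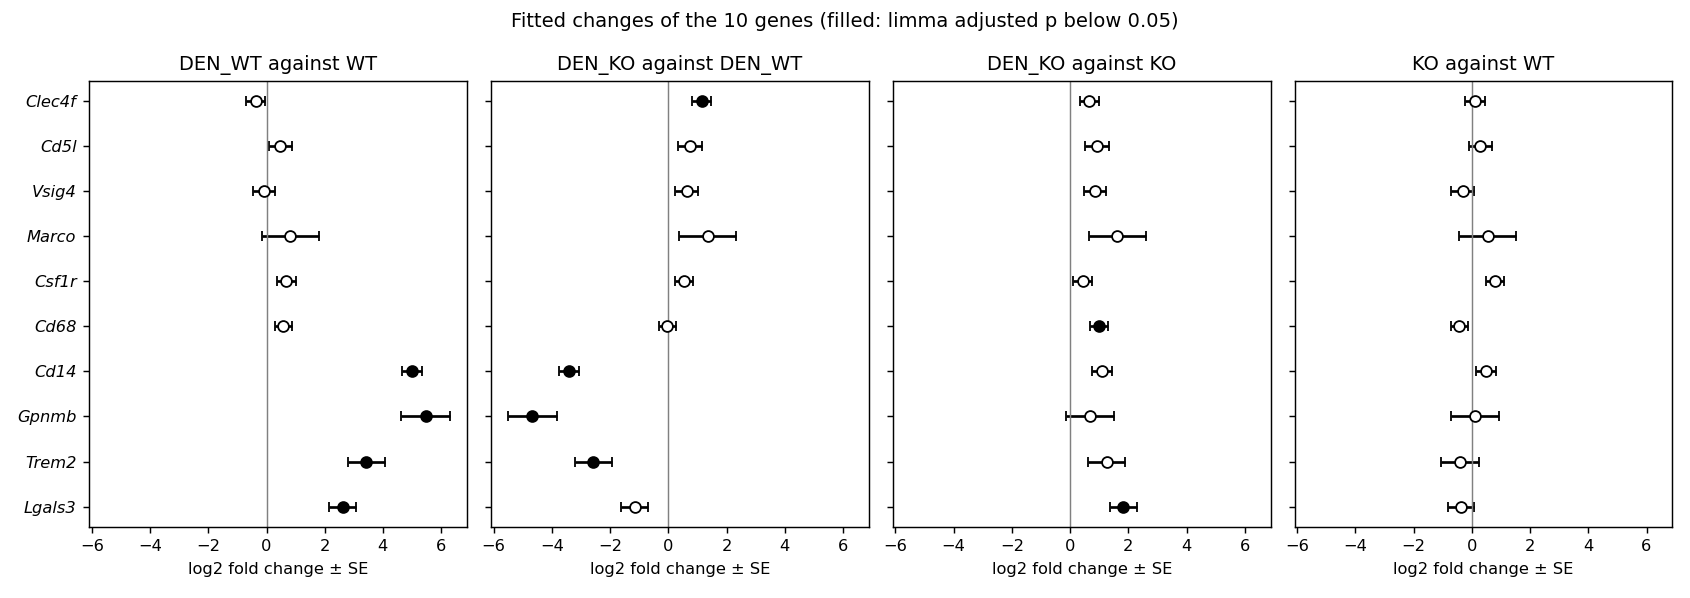
Log2 fold change on the log2(value + 1) scale with its standard error for the 10 genes in 4 comparisons, filled where the limma adjusted p was below 0.05. Gpnmb, Trem2, Cd14 and Lgals3 lie to the right in DEN_WT against WT, and in DEN_KO against DEN_WT Gpnmb, Trem2 and Cd14 lie to the left and Clec4f (1.15) to the right.

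In untreated livers 0 of the 10 genes were called between knockout and wild type. That count is close to the share over all tested genes, which was also small. In KO against WT limma called 0 of 10, beside 1.16% of tested genes (0.546% higher and 0.613% lower), 1 gene had an unadjusted p under 0.05, and 0 were called in each other setting tried. That gene was Csf1r, at 756, 941 and 672 in KO and 569, 483 and 336 in WT, with every KO library above every WT library (0.79 ± 0.32 SE, limma adjusted p = 0.26). Cd5l also had every KO library higher, at 1581, 1732 and 1594 in KO and 1346, 1274 and 1389 in WT, a pattern that 8.4% of tested genes share, with 9.05% lower in every KO library. Clec4f was close in both, at 2341 ± 263 in KO and 2167 ± 161 in WT. Marco reached 179 in KO replicate 2, against 18 and 8 in the other KO libraries, and 17 to 28 in WT. Gpnmb (2 to 11 in KO, 4 to 7 in WT) and Trem2 (2 to 6 in KO, 2 to 11 in WT) were near the bottom of the measured range in both groups.

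In knockout livers Lgals3 and Cd68 were called higher in the DEN-treated group, and neither call held in every other setting. In DEN_KO against KO all 10 log2 fold changes were positive, with a median of 0.95 against 0.02 over all tested genes. Limma called 2 higher and 0 lower, beside 8.91% of tested genes higher and 6.02% lower, or 14.9% in all. The count of 2 of 10 is close to the share in all. Lgals3 read 124, 83 and 114 in DEN_KO, against 59, 17 and 24 in KO (1.83 ± 0.46 SE, limma adjusted p = 0.019). Cd68 read 189, 217 and 231 in DEN_KO, against 109, 77 and 143 in KO (0.99 ± 0.30 SE, adjusted p = 0.043). In 5 of the 10 genes (Cd68, Lgals3, Clec4f, Cd5l and Vsig4) every DEN_KO library was above every KO library, as in 18.6% of tested genes. Cd14 was at 194 ± 103 in DEN_KO and 82.7 ± 20.8 in KO, with overlapping libraries (1.10 ± 0.35 SE, adjusted p = 0.052). Gpnmb and Trem2 overlapped between these groups (adjusted p = 0.62 and 0.21). Both calls depended on single libraries: 4 libraries (DEN_KO 1, DEN_KO 3, KO 2 and KO 3) each ended that of Lgals3 when left out, with adjusted p of 0.050 to 0.069, and that of Cd68 was lost in 11 of 21 other settings.

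The difference between the DEN effects of the 2 genotypes was tested by the interaction. Cd14 (-3.89 ± 0.50 SE, limma adjusted p = 0.00094) and Gpnmb (-4.78 ± 1.18 SE, adjusted p = 0.016) had a smaller DEN effect in knockout than in wild type livers. These 2 of 10 genes stand beside 7.83% of tested genes called in that direction, 8.73% in the other and 16.6% in all. That count is close to the share in all, and Gpnmb entered the test through DEN_WT, the group in which it was high. Trem2 pointed the same way without passing (-2.17 ± 0.92 SE, adjusted p = 0.12), and so did Lgals3 (-0.79 ± 0.65 SE, adjusted p = 0.43). Clec4f had the opposite sign (1.04 ± 0.48 SE, adjusted p = 0.15), and it passed without DEN_WT replicate 1 (1.41, adjusted p = 0.037).

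Ordered by group mean, Gpnmb, Trem2, Cd14, Lgals3 and Cd68 were highest in DEN_WT and second in DEN_KO. For Gpnmb, Trem2 and Cd14 the DEN_WT libraries stood clear of the rest and the libraries of DEN_KO, KO and WT overlapped between neighbours in that order. Lgals3 had 2 gaps, DEN_WT above DEN_KO and DEN_KO above the untreated groups, which overlapped each other. For Cd68 the DEN_KO libraries lay above those of WT, and the DEN_WT libraries overlapped both. Clec4f, Marco, Cd5l, Vsig4 and Csf1r were all highest in DEN_KO. Clec4f alone among these 5 had no DEN_KO library within the range of the next group.

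The values were also set against Clec4f, a Kupffer cell gene that was itself higher in DEN_KO than in DEN_WT (1.15), so that division by it raises the DEN_WT ratio of every gene relative to DEN_KO. Against Clec4f in the same library, Gpnmb stood at 2.39, 11.6 and 0.433 per 1000 units of Clec4f in DEN_KO and 228, 152 and 106 in DEN_WT, with at most 5.13 in the untreated groups. Trem2 stood at 2.99, 7.65 and 1.08 per 1000 in DEN_KO and 44.0, 63.6 and 26.5 in DEN_WT, with at most 4.76 in the untreated groups. In DEN_WT replicate 2, where Clec4f was lowest, Trem2 and Cd14 (1787 per 1000) had their highest ratios. Lgals3 stood at 37.1, 25.4 and 24.7 per 1000 in DEN_KO and 151, 156 and 120 in DEN_WT, with 7.93 to 26.4 in KO and 14.3 to 21.1 in WT. Csf1r was at 275 to 296 per 1000 in DEN_KO, 394 to 505 in DEN_WT, 255 to 439 in KO and 146 to 285 in WT. Cd68, which overlapped between DEN_KO and DEN_WT before division, also separated after it, at no more than 66.4 in DEN_KO, 107 to 161 in DEN_WT, 35.9 to 54.2 in KO and 55.4 to 73.3 in WT. Cd5l stood at 707 to 973 in DEN_KO, 946 to 1309 in DEN_WT, 604 to 807 in KO and 579 to 675 in WT, so DEN_KO and DEN_WT overlapped. These ratios are of values not divided by gene length, so they are compared between libraries and not between genes.

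**Figure D3:**
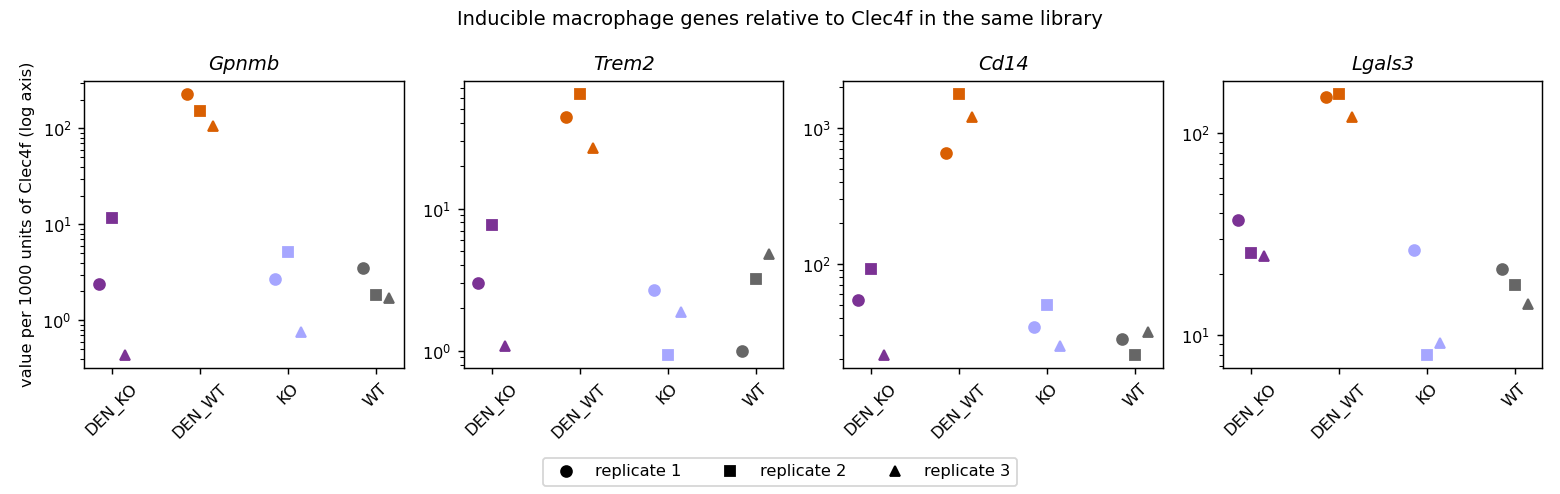
Gpnmb, Trem2, Cd14 and Lgals3 per 1000 units of Clec4f in the same library, on a log axis, by group and replicate. The 3 DEN_WT libraries are above all others in each panel, with Trem2 at 26.5 to 63.6 in DEN_WT and at most 7.65 elsewhere.

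Within groups, the resident genes were compared with each other and with the lipid-associated genes. After the group means were subtracted, Clec4f and Cd5l correlated at r = 0.955 over the 12 libraries (Spearman 0.692, and r = 0.699 without the 2 libraries farthest from the median of Clec4f). Clec4f with Vsig4 gave r = 0.784 and with Csf1r 0.769, which became 0.32 and 0.175 without those 2 libraries and so rest on them. Gpnmb, Trem2 and Cd14 had r with Clec4f of 0.152, 0.225 and 0.02, which became 0.531, 0.402 and 0.377 without the 2 libraries farthest for each of them. The libraries left out differ between pairs, so no contrast between resident and lipid-associated genes is read from these values. Gpnmb and Cd14 correlated at 0.776 (0.452 without the 2 libraries farthest for Gpnmb). These are descriptions of libraries that share groups and scaling.

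Other genes came close to single members in pattern over the 12 libraries, by Pearson correlation on the log2 scale. The closest to Gpnmb was Panx1 (r = 0.959), to Trem2 Osbpl3 (0.964), to Cd14 Igdcc4 (0.992), to Lgals3 the keratin gene Krt23 (0.949) and to Cd68 Apbb1 (0.963). Among the 3 closest to Clec4f were the acute phase gene Orm1 (0.946) and Siglec1, a sialic acid-binding receptor of macrophages (0.924). Cd5l was closest to the haem oxygenase gene Hmox1 (0.936) and the complement gene C1qb (0.93), Csf1r to Unc93b1 (0.939), Marco to Setd4 (0.918) and Vsig4 to Tbc1d10c (0.873). After subtraction of group means the closest to Clec4f was the hepatocyte gene Cyp4a12a (0.981), followed by C1qb (0.971). They are the highest of 16471 genes searched, and a search of that size gives high values by itself.

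The wider gene lists of both macrophage states were counted in the same fit, without the 10 genes. All lists were chosen with earlier results of these data known, so their counts are a description and not independent support. The shares over all tested genes to read them against were 16.1% higher and 13.5% lower in DEN_WT against WT, 16.4% higher and 17.4% lower in DEN_KO against DEN_WT, 8.91% higher in DEN_KO against KO and 7.83% lower in the interaction. Of 23 further lipid-associated genes tested, 18 were higher in DEN_WT than in WT and 0 lower, with a median of 1.5. Spp1, the secreted matrix protein osteopontin, averaged 13062 ± 3483 in DEN_WT and 731 ± 162 in WT (4.15 ± 0.27 SE, limma adjusted p = 7e-07), and bile duct cells make it too. Cd63, a tetraspanin of late endosomes, averaged 1127 ± 233 in DEN_WT and 29.0 ± 7.94 in WT (5.25 ± 0.40 SE, adjusted p = 2.5e-06). Lpl, lipoprotein lipase, averaged 5354 ± 1245 in DEN_WT and 346 ± 155 in WT. Atp6v0d2, a subunit of the lysosomal proton pump, read 202, 228 and 202 in DEN_WT and 19, 17 and 17 in WT. All 4 passed in DEN_KO against DEN_WT, where the log2 fold change was -3.49 for Spp1, -2.97 for Cd63, -3.11 for Lpl and -1.64 for Atp6v0d2 (limma adjusted p at most 0.004). These 4 were named for the smallest adjusted p of the list over both comparisons, which share the DEN_WT libraries, so these passes are not added evidence.

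In DEN_KO against DEN_WT 11 of the 23 lipid-associated genes were lower and 0 higher (median -0.55), and in DEN_KO against KO 12 were higher and 0 lower (median 0.93). The interaction called 6 of them lower. The summed values of the list went the other way, at 457350 to 520980 in DEN_KO and 260188 to 312002 in DEN_WT. Apoe, an apolipoprotein gene that hepatocytes express strongly, held 82.8% to 87.1% of them in DEN_KO and 69.6% to 71.6% in DEN_WT, and without it the sums overlapped, at 67108 to 85110 in DEN_KO and 79166 to 92203 in DEN_WT. Several of these genes are not restricted to macrophages, Lpl, Cd36, Apoe and Fabp4 among them, and the markers of other cells below moved in the same libraries.

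The 17 further Kupffer identity genes did not share a rise. In DEN_WT against WT 0 were higher and 3 lower (median -0.10): Id3, a transcriptional regulator needed for Kupffer cells, averaged 696 ± 157 in DEN_WT and 3715 ± 2118 in WT (-2.30 ± 0.40 SE, limma adjusted p = 0.00097). Nr1h3, the nuclear receptor LXR alpha, averaged 2749 ± 257 in DEN_WT and 4238 ± 190 in WT, and C6, a complement component, 2809 ± 1323 in DEN_WT and 7010 ± 1348 in WT. Hepatocytes express Id3, Nr1h3 and C6 as well. In DEN_KO against DEN_WT, C6 (1.32 ± 0.34 SE, adjusted p = 0.010) and Emr4, a Kupffer cell adhesion receptor (1.01 ± 0.33 SE, adjusted p = 0.031), were higher and 0 were lower (median 0.46).

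Of 20 pan-macrophage genes, 6 were higher in DEN_WT than in WT and 0 lower (median 0.67), a count that became 11 without DEN_WT replicate 2. Mpeg1, a pore-forming protein of macrophages, averaged 2038 ± 246 in DEN_KO and 9014 ± 1673 in DEN_WT (-2.13 ± 0.23 SE, limma adjusted p = 6.8e-05), with 1161 ± 316 in WT. Aif1, a macrophage actin-binding protein, went the other way, at 125 ± 31.2 in DEN_KO and 40.0 ± 27.1 in DEN_WT (1.84 ± 0.48 SE, adjusted p = 0.010), and so did the complement gene C1qa, at 1318 ± 277 in DEN_KO and 550 ± 312 in DEN_WT (1.42 ± 0.38 SE, adjusted p = 0.012). Ctsc, a lysosomal protease (1.80 ± 0.30 SE in DEN_WT against WT, adjusted p = 0.00074), and Cybb, the phagocyte oxidase subunit (1.48 ± 0.27 SE, adjusted p = 0.0012), did not pass in DEN_KO against DEN_WT.

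Lists of the signalling partners of the 10 proteins were counted next. Of 12 further genes of TREM2 signalling, 3 were higher in DEN_WT than in WT, among them the phosphatase Inpp5d (0.93 ± 0.26 SE, limma adjusted p = 0.015), and the kinase subunit Pik3r1 was lower. In DEN_KO against DEN_WT the only one called was Cd33, an inhibitory receptor, which was lower (-1.24 ± 0.37 SE, adjusted p = 0.020). Of 15 genes of CD14 and TLR4 signalling, 2 were higher in DEN_WT than in WT, a share no larger than the 16.1% of all tested genes, namely Tlr2 (1.25 ± 0.21 SE, adjusted p = 0.00079) and Cd180 (1.29 ± 0.39 SE, adjusted p = 0.024). In DEN_KO against DEN_WT 4 of them were lower and 2 higher, beside 33.9% of all tested genes called. Tlr4 itself averaged 26.0 ± 6.08 in DEN_KO and 59.3 ± 19.6 in DEN_WT (-1.14 ± 0.32 SE, adjusted p = 0.014), with 43.3 ± 1.53 in WT, where its DEN change did not pass (0.40 ± 0.32 SE).

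On the CSF1 receptor axis 4 of 15 genes were higher in DEN_WT than in WT and 0 lower, and 3 were higher and 2 lower in DEN_KO than in DEN_WT, which became 1 higher and 3 lower without DEN_WT replicate 2. The macrophage transcription factor Irf8 was among those higher in DEN_WT (1.07 ± 0.22 SE, limma adjusted p = 0.0031). Cebpb, a transcription factor that hepatocytes also use, averaged 2805 ± 549 in DEN_KO and 865 ± 469 in DEN_WT (1.81 ± 0.32 SE, adjusted p = 0.00099). Of 17 scavenger and efferocytosis receptors and bridges, 9 were higher in DEN_WT than in WT and 0 lower. Mfge8, a bridge to dying cells, averaged 545 ± 179 in DEN_KO, 1356 ± 400 in DEN_WT, 132 ± 21.9 in KO and 154 ± 36.7 in WT. Gas6, the ligand of the TAM receptors, had much the same mean in both DEN-treated groups, 973 ± 173 in DEN_KO and 932 ± 265 in DEN_WT (0.09 ± 0.21 SE, adjusted p = 0.77). Of 11 complement receptor genes and factors, 3 were higher in DEN_WT than in WT and 0 lower. Among 5 further tested genes of the galectin list, Lgals1 averaged 309 ± 103 in DEN_KO and 75.3 ± 25.3 in DEN_WT (2.02 ± 0.42 SE, adjusted p = 0.0029), the opposite direction to Lgals3. Lgals4 was higher in DEN_KO as well (2.04) and Lgals9 lower (-0.96), which made 2 higher and 1 lower of the 5. Lgals3bp, on that list as a binding partner of galectin-3, was not called in DEN_KO against DEN_WT (-0.47). It was higher in DEN_WT than in WT (1.13 ± 0.18 SE, limma adjusted p = 0.00046) and in DEN_KO than in KO (1.14 ± 0.18 SE, adjusted p = 0.0019).

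Markers of other cells moved in the same libraries as the lipid-associated genes. Of 14 monocyte genes, 5 were higher in DEN_WT than in WT, and 5 were lower and 2 higher in DEN_KO than in DEN_WT. Ccr2, the chemokine receptor of entering monocytes, averaged 34.7 ± 12.5 in DEN_KO and 124 ± 77.0 in DEN_WT (-1.71 ± 0.39 SE, limma adjusted p = 0.0048), and Cx3cr1 16.7 ± 15.3 in DEN_KO and 155 ± 46.9 in DEN_WT (-3.47 ± 0.69 SE, adjusted p = 0.0022). The summed values of the monocyte list did not follow this order, at 6892 to 13331 in DEN_KO, 3231 to 7264 in DEN_WT, 2391 to 4590 in KO and 2737 to 3746 in WT. Ifitm3, an interferon-induced gene, held most of them, and without it the sums were 349 to 447 in DEN_KO and 568 to 1279 in DEN_WT. Stellate cell genes had 5 of 10 higher and 2 lower in DEN_WT against WT, with sums of 3864 to 4711 in DEN_KO, 5514 to 9620 in DEN_WT, 3360 to 4436 in KO and 4499 to 4801 in WT. Cholangiocyte sums were 1605 to 2623 in DEN_KO and 11813 to 21107 in DEN_WT. Endothelial genes had 6 of 10 higher in DEN_WT against WT. In that comparison 1 of 5 tested neutrophil genes, 1 of 8 dendritic cell genes, 0 of 9 T and NK cell genes and 1 of 5 B and plasma cell genes were higher. The share over all tested genes was 16.1%. Lists this short cannot show that these cells did not change. The hepatocyte list had 5 of 9 genes higher in DEN_KO than in DEN_WT, while its sums were lower, at 1913708 to 2819854 in DEN_KO and 3093509 to 4642054 in DEN_WT. Alb, the albumin gene, held 47.2% to 57.0% of these sums in DEN_KO and 66.6% to 72.9% in DEN_WT, and without it they overlapped, at 958701 to 1212453 in DEN_KO and 1012244 to 1272359 in DEN_WT. No listed gene was at 0 in all libraries. The part of these cells in the changes of the 10 genes was not tested.

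DEN_WT replicate 2 also moved several of these counts. Without it, Kupffer identity genes had 2 higher in DEN_WT than in WT and 1 higher in DEN_KO than in DEN_WT, and monocyte genes had 9 higher in DEN_WT than in WT and 0 higher in DEN_KO than in DEN_WT. Pan-macrophage genes then had 1 higher and 4 lower in DEN_KO than in DEN_WT, and 6 in place of 3 were higher in DEN_KO than in KO. TREM2 signalling then had 5 genes higher in DEN_WT than in WT and 0 lower in DEN_KO than in DEN_WT, CD14 and TLR4 signalling 4 higher in DEN_WT and 0 higher in DEN_KO, and the complement list 7 higher in DEN_WT. The neutrophil list then had 2 of 5 tested genes higher in DEN_WT than in WT. Shares over all tested genes without that library were 13.9% higher in DEN_WT than in WT, 12.1% higher and 12.4% lower in DEN_KO than in DEN_WT, and 9.05% higher in DEN_KO than in KO. For the lipid-associated list the counts were 19 higher in DEN_WT than in WT and 9 lower in DEN_KO than in DEN_WT.

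**Figure D4:**
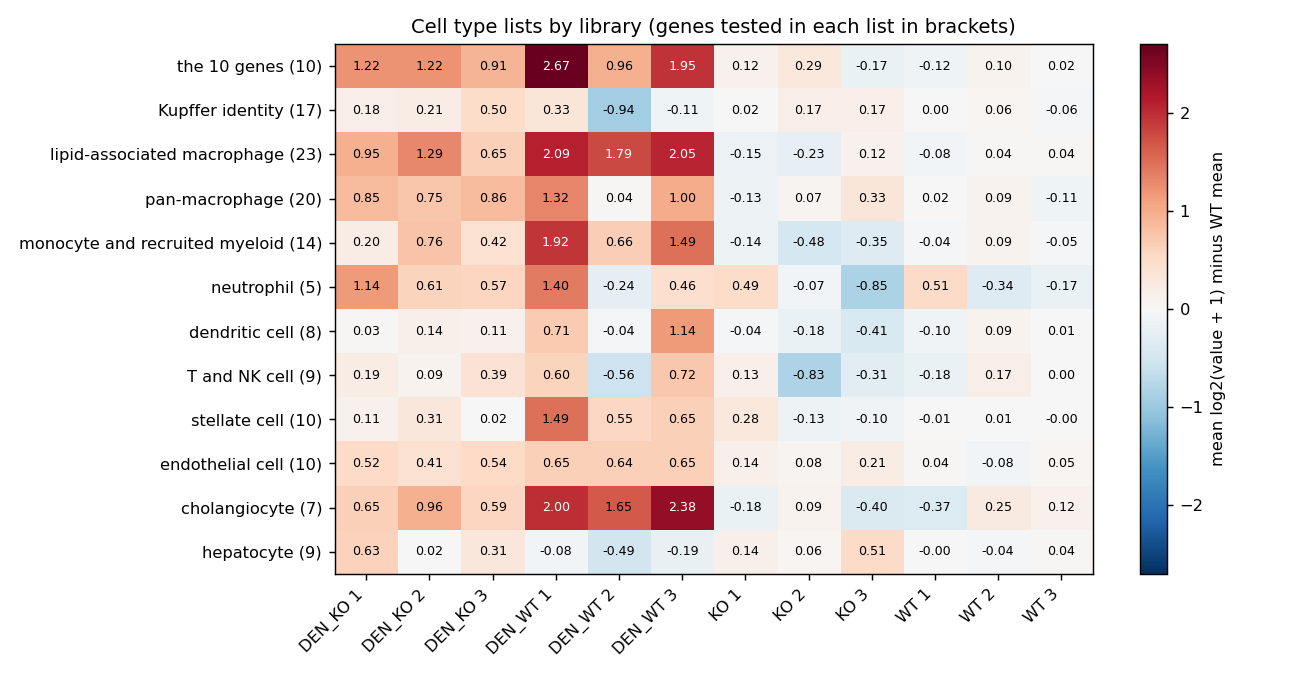
Mean log2(value + 1) of the tested genes of each list minus its WT mean, for the 12 libraries, with the number of genes in brackets. DEN_WT replicate 2 is at -0.94 for the Kupffer identity list and 0.04 for the pan-macrophage list but at 1.79 for the lipid-associated list.

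Few of the 10 gene starts had a listed region in the wild type lists. The region lists use build mm9, and a region was counted when it lay within 1000 bases of the gene start given in the table. In the Smyd3 list of DEN-treated wild type livers, 1 of the 10 genes had such a region, beside 64.2% of tested genes. In the H3K4me3 list of DEN-treated knockout livers 4 of 10 had one, beside 72.4%, and in that of DEN-treated wild type livers 1 of 10, beside 70.5%. Low counts were not particular to the 10 genes. A Smyd3 region was at 2 of 20 pan-macrophage, 0 of 14 monocyte and 0 of 9 T and NK cell genes. It was at 7 of 17 Kupffer identity and 13 of 23 lipid-associated genes. For wild type H3K4me3 these counts were 8 of 20, 1 of 14, 0 of 9, 8 of 17 and 16 of 23.

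Counted from the table starts, Cd14 was the gene present in all 3 lists. Its Smyd3 region of 287 bases ended 362 bases upstream of the start, and 98.5% of Smyd3 regions are as long or longer. An H3K4me3 region of 1525 bases in the knockout list and of 1579 bases in the wild type list covered its start. At Cd14 the mark was thus listed in both genotypes, and the mean Cd14 RNA value was 9.92-fold lower in DEN_KO than in DEN_WT. The lists give positions only, so the level of the mark cannot be compared between genotypes or with the RNA.

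Clec4f, Cd5l and Csf1r had an H3K4me3 region at the start in the knockout list and none in the wild type list. This pattern was seen in 3 of the 10 genes, beside 3.6% of tested genes, and the reverse in 0 of 10, beside 1.72%. The Clec4f region ran over chr6:83597036-83606106 (mm9), 9071 bases that begin 75 bases after the start and cover most of the gene, which spans chr6:83594536-83606181 on the minus strand. Only 0.406% of the knockout-list regions are as long, the list median being 1576 bases. The Cd5l region had 5172 bases (3.3% as long or longer), and lay within the gene at chr3:87161803-87174996 on the plus strand, starting 119 bases after its start. At Csf1r it had 2456 bases and started 267 bases after the gene start. In the wild type list the nearest regions were 83219 bases away for Clec4f, 150569 for Cd5l and 70677 for Csf1r. The RNA of Clec4f was higher in DEN_KO than in DEN_WT, while Cd5l and Csf1r were not past the threshold.

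Other genes of macrophages showed the same listing. Regions only in the knockout list were at 5 of 17 Kupffer identity genes (Cd163, Clec1b, Emr4, Kcna2 and Timd4), at 5 of 20 pan-macrophage genes (C1qb, C1qc, Emr1, Fcgr1 and Laptm5) and at 4 of 12 TREM2 signalling genes (Cd33, Pik3cd, Plcg2 and Syk). Regions only in the wild type list were at 0 genes of those 3 lists. In the lipid-associated list a knockout-only region was at 1 of 23 genes (Ctss). Among other cell types there were 3 of 10 stellate cell genes, 1 of 10 endothelial genes and 0 of 9 hepatocyte genes. The knockout list held 17491 regions and the wild type list 15579. Each list stands for 2 precipitations without a value per replicate, so these listings have no replicate error and no test.

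Gpnmb, Trem2, Marco and Vsig4 had no region over any part of the gene in any of the 3 lists. Gpnmb spans chr6:48986517-49020928 and Trem2 chr17:48485726-48493472 in mm9, both on the plus strand. The nearest H3K4me3 region to Gpnmb was 36826 bases from its start in the knockout list and 37004 in the wild type list, and for Trem2 61976 and 62021 bases. Both genes had their highest RNA values in DEN_WT without a region listed there. At Lgals3 a region began 6168 bases downstream of the table start in the knockout list and 6176 in the wild type list, with a Smyd3 region 5941 bases downstream. The table gives Lgals3 a span of 18410 bases, 6102 more than RefSeq does, so the start used here may not be the one in use. If both spans end at the same base, the RefSeq start lies inside the Smyd3 region, which covers 5941 to 6560 bases. It then lies close to both H3K4me3 regions, and the counts at table starts miss Lgals3. Gpnmb has a table span of 34412 bases, 12747 more than in RefSeq. The builds were not aligned here, so the end at which its spans differ was not determined. Beside Cd68 the nearest regions of all 3 lists began 3013 to 3140 bases downstream of its start, at the start of the gene Mpdu1.

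**Figure D5:**
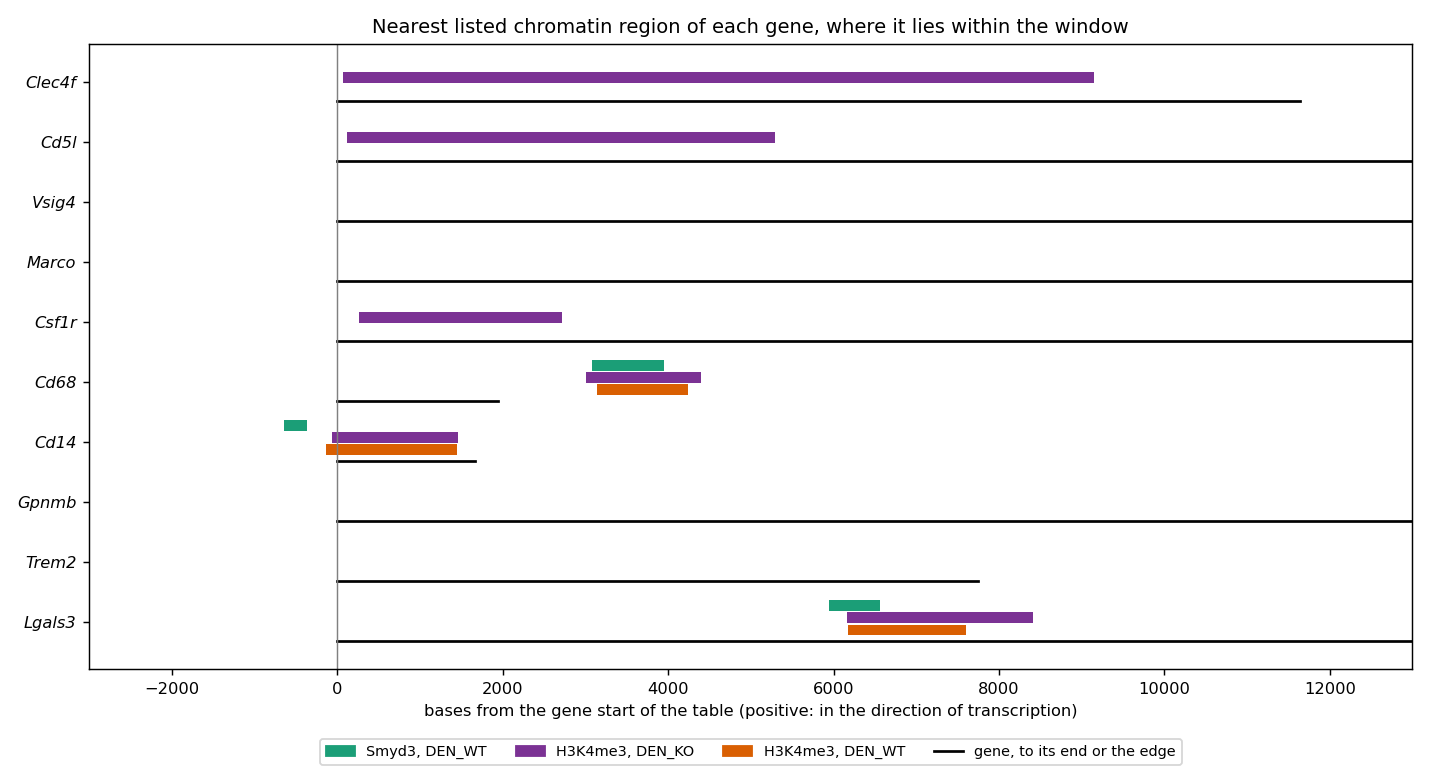
Nearest listed region of each gene in each of the 3 lists, drawn to scale in bases from the gene start, with the gene as a black line. Clec4f (9071 bases), Cd5l (5172) and Csf1r (2456) have only a knockout-list H3K4me3 bar. Cd14 has bars of all 3 lists at its start, and Lgals3 and Cd68 have them further downstream. Vsig4, Marco, Gpnmb and Trem2 have none within the window.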

How the data were processed

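RNA was measured in 12 mouse liver libraries, 3 per group, numbered as replicates within each group and taken here as separate mice. The authors deposited a table of normalized read counts per gene, treated here as a score because these are whole numbers left after scaling of each library. The unit was read from the file name and from median-ratio factors of 0.999 to 1.004 recomputed here. TopHat2 2.0.9, cutadapt, Cufflinks, Bowtie2, DESeq and build mm9 are named in the submitters' processing notes, without roles. Not given in the sources used here are the counting tool, its use of strand and the peak caller. Raw depth is unknown, so no count model was used. The table's GC content is a fraction per the file headers and was not used in a test. The deposited region lists hold a score of 0 in every line, so only positions were used. Each list is labelled as 2 precipitations, and their merging is not stated. Polymerase II and input libraries were not analysed here.

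The 16471 of 37583 genes that reached 10 in 3 or more libraries were fitted with limma 3.58.1 in R 4.3.3 on log2(value + 1), with 4 groups in 1 fit, 8 residual degrees of freedom, a mean-variance trend and Benjamini-Hochberg adjustment at 0.05 over all tested genes. Fold changes on this scale understate changes of low genes, and values are not divided by gene length. Low genes such as Gpnmb and Trem2 are the least precise. The fit was checked only on simulated data with the same relative spread beyond counting noise in every gene and library. Real replicates need not follow that, so the check does not show how the fit performs on these data. With 3 libraries a group the smallest p of an exact permutation test is 0.1, so none was used. Named genes are the 10 members, Smyd3, up to 4 called genes per list with the smallest adjusted p, and the 3 tested genes closest to each member in pattern. Genes named for a listed region, as expressed outside macrophages or as holding most of a sum were chosen after their values were seen. The members and lists were chosen with earlier results of these data known. Alternatives were other pseudocounts, filters, scalings, a replicate block, fits of the compared groups alone, no trend, single libraries left out and other windows for regions. Replicates of a group differed by more than sampling noise (chi-square per degree of freedom at least 52.0).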

Additional observations from a re-analysis of the deposited data

Results flagged for a closer look

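The DEN effect on Cd14 differed between genotypes. The log2 difference, the effect in knockout livers minus that in wild type livers, was -3.89 ± 0.50 SE (limma adjusted p = 0.00094, and 0.00046 to 0.004 over the other settings). Every DEN_KO library (98 to 302) was below every DEN_WT library (1433 to 2494), and the untreated groups overlapped at 66 to 106 in KO and 47 to 73 in WT.

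The DEN effect on Gpnmb differed as well, by -4.78 ± 1.18 SE (limma adjusted p = 0.016, and 0.005 to 0.04 over the other settings). With single libraries left out it ran from -5.75 (without DEN_KO replicate 2) to -3.90 (without DEN_KO replicate 3), with -4.13 without DEN_WT replicate 1. Every DEN_KO library (2 to 38) was below every DEN_WT library (122 to 637), while KO libraries held 2 to 11 and WT libraries 4 to 7, so the untreated values are close to the lower end of what was measured. Outside DEN_WT only 2 libraries reached a value of 10. Gpnmb therefore entered this test through the group in which it was high, and its adjusted p is to be read with that limit.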

How the results depend on the processing

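Of the members' fold changes, 430 of 440 values under other settings and 559 of 600 with 1 library left out kept their direction and their side of the threshold. Part of this was fixed in advance. Leaving out a library outside the compared groups cannot change a fold change, only its adjusted p. The same holds for other filters, the replicate block, fits of the compared groups alone and no trend. The count called in DEN_WT against WT ran from 4 to 7 with single libraries left out, 7 being without DEN_WT replicate 2. In DEN_KO against DEN_WT it ran from 3 (without DEN_KO replicate 3) to 6 (without DEN_WT replicate 1), with 3 in the fit of the compared groups alone. In DEN_KO against KO the count of 2 became 1 without the filter on low values, 1 under quantile normalization, 1 without a trend and 5 in the fit of the compared groups alone. It ran from 0 (without DEN_KO replicate 1) to 4 (without DEN_WT replicate 2) with single libraries left out. In the interaction it was 2 to 3, and the fit of the compared groups alone gives no value there. KO against WT stayed at 0 throughout. Over all genes, the calls in KO against WT numbered 191, and 62 to 560 with single libraries left out, 115 in the fit of the compared groups alone and 104 without a trend. In DEN_KO against KO they numbered 2460, and 1170 at the lowest with a library left out, and in the interaction 2727 and 1787.

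With a replicate block the counts were 4 in DEN_WT against WT, 5 in DEN_KO against DEN_WT, where Lgals3 passed (adjusted p = 0.024 by limma), 0 in KO against WT, 2 in DEN_KO against KO and 2 in the interaction. Same-numbered libraries deviated together with r of -0.1 to 0.12, so the numbers were not taken as pairs.

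Signs turned for genes that were not called. Vsig4 in DEN_WT against WT was 0.14 with libraries scaled to the same total, and -0.52 to 0.37 with single libraries left out. Cd68 in DEN_KO against DEN_WT was 0.058 under quantile normalization, and -0.40 to 0.21 with single libraries left out. With single libraries left out, Cd5l ran from -0.016 to 1.12 and Clec4f from -0.74 to 0.16 in DEN_WT against WT. In KO against WT, Marco ran from -0.72 to 1.44, Trem2 from -0.97 to 0.033 and Gpnmb from -0.35 to 0.65. Gpnmb in DEN_KO against KO ran from -0.28 to 1.57. In the interaction Marco ran from -0.088 to 2.07, Csf1r from -0.67 to 0.051 and Cd5l from -0.20 to 0.93. The cause was not tested.

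Scaling to the same total moved the median of all genes from -0.02 to 0.19 in DEN_WT against WT, and the share of higher among called genes was 74.2% in place of 54.5%. That share was 65.1% in place of 47.1% in KO against WT (median 0.10), 69.9% in place of 59.7% in DEN_KO against KO and 38.2% in place of 52.7% in the interaction (median -0.18).

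For regions, the Smyd3 list gave 0 members when the region had to cover the start, 2 within 5000 bases and 0 at the opposite end of the gene, against 1. The knockout H3K4me3 list gave 1 when the start had to be covered and 1 at the opposite end, against 4, and the wild type list gave 2 within 5000 bases, against 1. The list counts without DEN_WT replicate 2 were an alternative chosen after seeing the data. Kupffer identity genes then had 2 higher in DEN_WT against WT (0 with it) and 1 higher in DEN_KO against DEN_WT (2 with it). Pan-macrophage genes had 11 higher in DEN_WT against WT (6 with it), and 1 higher and 4 lower in DEN_KO against DEN_WT (2 and 1 with it). Monocyte genes had 9 higher in DEN_WT against WT (5 with it) and 0 higher in DEN_KO against DEN_WT (2 with it).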
